A study of Mus musculus with 6 samples.

Results

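The genes of the MHC class I presentation machinery were examined in the RNA of Hepa1-6 tumors from control and Sora-treated mice. The members were chosen by name and by function, by a rule that uses no measured value, although earlier results of these data were known when it was set: the class I chains H2-K1, H2-D1, H2-T23, and B2m, the peptide transport genes Tap1, Tap2, and Tapbp, the immunoproteasome subunits Psmb8 and Psmb9, and the class I regulator Nlrc5. These are 10 of the 26167 genes listed in the expression tables, and all 10 passed the filter on low counts. Hepa1-6 (Hep1-6 in the sample labels) is a mouse hepatoma cell line, and Sora is sorafenib, an inhibitor of several kinases. In both groups, 5000000 of these cells were injected under the skin of female C57BL/6J mice, 6 to 8 weeks old at purchase, on day 0. The Sora-treated mice received 10 mg/kg ip on days 9, 11, 13, and 15. One library was made per tumor, from 3 control tumors, numbered 1, 3, and 4 in the labels, and 3 Sora-treated tumors, numbered 2, 3, and 4. The vehicle of the control mice and the day on which the tumors for RNA were taken are not given in the sources used here. The labels name no genetic change, and all tumors come from 1 cultured line grown in hosts with an immune system of their own, so each library can hold RNA of tumor cells and of host cells.

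MHC class I molecules display peptides from inside the cell to CD8 T cells and to NK cells. Proteins are cut by the proteasome, in which immunosubunits such as Psmb8 and Psmb9 can replace constitutive ones, the peptides are carried into the endoplasmic reticulum by the Tap1 and Tap2 transporter, and tapasin (Tapbp) brings them to a heavy chain bound to B2m. Nlrc5 is a transactivator of class I genes, and interferon gamma raises the expression of much of this pathway, in part through Irf1. Hepatoma cells, leukocytes, and stromal cells can all express these genes. In bulk tumor RNA, fewer cells of a type and less RNA per cell cannot be told apart.

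Each library held between 31073830 and 36205814 counted reads, and the fewest reads for a member in any tumor were 2556, for Tap2. The count table used here holds 5 tumors, so the counts of Sora-treated tumor 4 were recovered from its FPKM values (reads divided by gene length and by library total). All of the recovered values (100%) lay within 0.001 of a whole number. Levels in CPM are counts relative to the library total after TMM scaling in edgeR. Each of the 9 hepatoma markers and each of the 5 leukocyte markers had reads in every tumor, although the liver gene Apoa2 averaged only 1.31 CPM.

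The promoters of the heavy chain genes and of their partners are shown first, as a description of sequence. Whether these sequences bear on the levels of the members was not tested. RefSeq windows from 250 bases before to 50 after the start of a gene (GRCm38.p6) were found for 8 of the 10 members, and none was in the table for Tap2 and Nlrc5. Capitals mark matches, on either strand, to an interferon regulatory factor core (GAAANNGAA, or GAANNGAAA, a form added after the sequences were seen), a GAS element (TTCNNNGAA), a kB motif (GGGGATTCC), a CRE core (TGACG), and a CCAAT box (CCAAT). The first pair are the classical heavy chain genes, H2-K1 at chr17:34000298-34000597 on the minus strand and H2-D1 at chr17:35262844-35263143 on the plus strand.
H2-K1: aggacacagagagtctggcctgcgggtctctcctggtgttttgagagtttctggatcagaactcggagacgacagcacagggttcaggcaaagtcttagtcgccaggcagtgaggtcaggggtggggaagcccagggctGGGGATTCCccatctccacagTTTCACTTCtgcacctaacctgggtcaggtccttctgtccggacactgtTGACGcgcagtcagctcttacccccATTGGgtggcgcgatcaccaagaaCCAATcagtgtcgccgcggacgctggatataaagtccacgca
H2-D1: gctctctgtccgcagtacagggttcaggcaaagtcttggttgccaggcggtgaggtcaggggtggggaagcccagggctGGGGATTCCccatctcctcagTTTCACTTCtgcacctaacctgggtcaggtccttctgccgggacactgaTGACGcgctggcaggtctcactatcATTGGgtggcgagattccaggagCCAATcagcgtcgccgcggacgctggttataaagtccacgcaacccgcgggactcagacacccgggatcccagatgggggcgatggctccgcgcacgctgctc
The second pair are B2m, the light chain gene, at chr2:122147437-122147736 on the plus strand, and Tap1 at chr17:34187306-34187605 on the plus strand.
B2m: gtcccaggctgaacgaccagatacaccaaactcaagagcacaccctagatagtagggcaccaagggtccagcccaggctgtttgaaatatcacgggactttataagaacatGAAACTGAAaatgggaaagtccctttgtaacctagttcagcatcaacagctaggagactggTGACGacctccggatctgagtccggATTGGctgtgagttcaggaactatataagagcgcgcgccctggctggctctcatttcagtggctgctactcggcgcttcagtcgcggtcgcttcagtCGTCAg
Tap1: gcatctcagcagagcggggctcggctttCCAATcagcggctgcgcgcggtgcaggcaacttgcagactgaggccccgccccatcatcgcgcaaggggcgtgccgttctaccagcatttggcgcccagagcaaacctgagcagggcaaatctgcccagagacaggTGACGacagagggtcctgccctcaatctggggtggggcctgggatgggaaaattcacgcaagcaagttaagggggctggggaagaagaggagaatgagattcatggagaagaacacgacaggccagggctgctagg
The windows of H2-K1 and H2-D1 aligned over 228 columns with 1 gap, and 206 columns (90.35%) were identical. In both windows, the interferon core of the added form began 21 bases after the start of the kB match, the CRE core 70 bases after it, and the first CCAAT match 95 bases after it. The second CCAAT match began 119 bases after the start of the kB match in H2-K1 and 118 bases after it in H2-D1. The start sites of Tap1 and Psmb9 lie 226 bases apart on opposite strands, and their windows share 275 of 300 bases, so the Tap1 sequence also shows most of the Psmb9 window.

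The kB motif was held by 2 of the 8 windows (H2-K1 and H2-D1), against 0.25% of all 32851 windows of the same length. The core GAAANNGAA was held by H2-T23 and B2m (2 of 8, against 8.56% of all windows). GAANNGAAA was held by H2-K1 and H2-D1 (2 of 8, against 7.52%), and both forms can match at overlapping letters. The aligned parts of the H2-K1 and H2-D1 windows are 90.35% identical, so the matches that they share are not independent of each other. The CRE core was held by H2-K1, H2-D1, B2m, Tap1, and Psmb9 (5 of 8, against 20.8%), and CCAAT by every window but that of Psmb8 (7 of 8, against 37.4%). The CRE core and the CCAAT of Tap1 and Psmb9 lie on the bases that their windows share, so each is 1 stretch of DNA counted in 2 windows. The GAS motif was held by Psmb8 alone (1 of 8, against 8.3%). A match to these letters describes the sequence and is no evidence of binding, and the factors were not measured on DNA here.

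Per gene length, the members spanned a wide range of levels. B2m was the highest at a mean of 2647 FPKM over the 6 tumors, the 8th highest value of all genes listed, followed by H2-D1 at 1465, H2-K1 at 381, and H2-T23 at 234 FPKM. Psmb8 (185 FPKM), Tapbp (165), Tap1 (105), Psmb9 (86.8), Tap2 (37.5), and Nlrc5 (20.9) followed. B2m thus stood 127-fold above Nlrc5 in mean FPKM. The order was the same in the control and in the Sora-treated tumors, and each gene stood above the next one in 6 of 6 tumors. The ranges over the tumors overlapped for H2-T23 and Psmb8, for Psmb8 and Tapbp, and for Tap1 and Psmb9, so their levels were separated within each tumor but not in their ranges over tumors. The FPKM of B2m averaged 2851 ± 125 over the controls, against 2442 ± 219 after Sora (SD, n = 3 each), and that of Nlrc5 was 22.4 ± 0.943 and 19.4 ± 1.56.

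No member was up-regulated or down-regulated after Sora when edgeR's quasi-likelihood test was used with Benjamini-Hochberg adjustment (adjusted p from 0.19 to 0.83). The estimates of all 10 members lay below 0, between -0.25 and -0.09 on the log2 scale with a median of -0.178, while 50.1% of the 16513 genes tested lay below 0. Without control tumor 3 the median was -0.065, and H2-T23 (0.10) and Tap2 (0.02) were above 0. Without Sora-treated tumor 2 it was -0.093, and H2-T23 (0.02) and Tap1 (0.02) were above 0. In the fit without control tumor 3, Psmb9 (-0.0067), Tap1 (-0.01), H2-D1 (-0.02), and Psmb8 (-0.11) were below 0 but nearer to it than with all tumors. At an unadjusted p under 0.05, 2 members (Tapbp and Nlrc5) were lower. By the same tests, edgeR placed 1.34% of all genes lower and 1.94% higher with adjustment, and 8.69% lower and 8.53% higher without it. DESeq2 also called 0 members with adjustment, against 3.71% of genes lower and 4% higher, and had 4 members at an unadjusted p under 0.05 (B2m, Tapbp, Psmb8, and Nlrc5, all lower), against 8.82% of genes lower and 8.72% higher. The groups did not overlap for 2 of 10 members (B2m and Nlrc5, both lower in Sora-treated tumors), against 11.6% of all genes that were lower and 10.6% that were higher without overlap. The lowest bound of a 95% interval among the members was -0.501 (Tapbp).

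**Figure D1:**
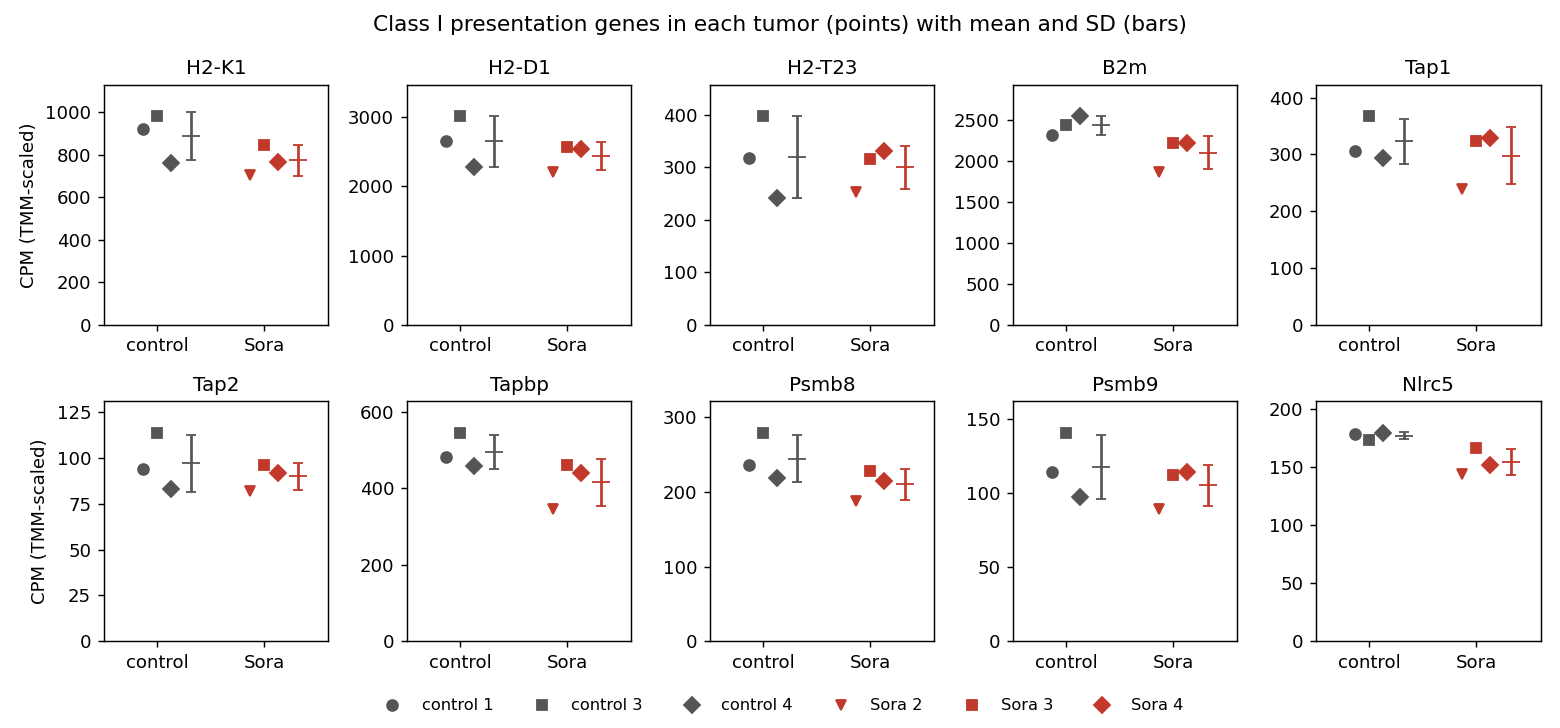
TMM-scaled CPM of each of the 10 members in 3 control tumors (grey) and 3 Sora-treated tumors (red), with 1 point per tumor and the mean and SD beside them; each panel has its own axis from 0. The groups are separate for B2m and Nlrc5 and overlap for the other 8 genes, in most of which control tumor 3 is the highest point and Sora-treated tumor 2 the lowest.

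H2-K1, a classical heavy chain that presents peptides to CD8 T cells, had 922, 982, and 760 CPM in controls 1, 3, and 4, against 706, 848, and 767 CPM in Sora-treated tumors 2, 3, and 4. The groups overlapped because control tumor 4 lay below 2 of the 3 Sora-treated tumors. The means were 888 ± 115 and 773 ± 71.2 CPM (SD, n = 3), a log2 fold change of -0.20 (standard error 0.11, 95% interval -0.44 to 0.04, edgeR adjusted p = 0.39). H2-D1, the other classical heavy chain, had 2659, 3015, and 2284 CPM in the controls, against 2205, 2577, and 2536 CPM after Sora. Control tumors 1 and 3 were above every Sora-treated tumor, and control tumor 4 was again below 2 of them. Its log2 fold change was -0.12 (standard error 0.12, edgeR adjusted p = 0.66).

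H2-T23, the heavy chain of Qa-1, a nonclassical molecule recognized by the Klrd1 and Klrc1 receptor of NK cells and CD8 T cells, had 318, 397, and 241 CPM in the controls. The Sora-treated tumors had 253, 315, and 331 CPM. Control tumor 4 was the lowest of the 6 tumors, and the estimate of -0.09 had a standard error of 0.16 (edgeR adjusted p = 0.83). The 3 heavy chain genes belong to a family of near-identical genes, and reads could have been split between its members by the counting, so their levels are uncertain to that extent.

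B2m, the light chain shared by the class I heavy chains, had 2319, 2446, and 2551 CPM in the controls, against 1873, 2224, and 2219 CPM after Sora. Every Sora-treated tumor lay below every control tumor, and control tumor 4, low for the heavy chains, was the highest of the 6. The means were 2439 ± 116 and 2105 ± 201 CPM (SD, n = 3). The log2 fold change was -0.21 (standard error 0.10, 95% interval -0.425 to 0.001) and did not pass the test (edgeR unadjusted p = 0.051, adjusted p = 0.29).

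Tap1, the first subunit of the peptide transporter, had 307, 367, and 295 CPM in the controls, against 240, 325, and 329 CPM after Sora. Sora-treated tumors 3 and 4 lay above control tumors 1 and 4, and the log2 fold change of -0.12 (standard error 0.13, edgeR adjusted p = 0.70) was no larger than its standard error. Tap2, its partner, had 94.1, 114, and 83.2 CPM in the controls, against 81.7, 96.4, and 91.6 CPM after Sora. Its groups overlapped as well, and the log2 fold change was -0.11 (standard error 0.11, edgeR adjusted p = 0.68).

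Tapbp, which links the transporter to the heavy chain, had 482, 545, and 458 CPM in the controls, against 346, 460, and 439 CPM after Sora. Sora-treated tumor 3 lay just above control tumor 4, and Sora-treated tumor 2 was far below the rest. The means of 495 ± 45.3 and 415 ± 60.8 CPM gave the lowest estimate of the 10 members, a log2 fold change of -0.25 (standard error 0.11, 95% interval -0.501 to -0.006, edgeR unadjusted p = 0.046, adjusted p = 0.28).

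Psmb8, the immunosubunit that replaces Psmb5, had 235, 279, and 218 CPM in the controls, against 187, 228, and 215 CPM after Sora. Sora-treated tumor 3 was above control tumor 4, and the log2 fold change was -0.22 (standard error 0.10, edgeR adjusted p = 0.32). Psmb9, which replaces Psmb6, had 114, 141, and 97.2 CPM in the controls, against 89.4, 112, and 114 CPM after Sora. Control tumor 4 was below 2 of the Sora-treated tumors, and the log2 fold change was -0.16 (standard error 0.13, edgeR adjusted p = 0.61). Psmb9 and Tap1 start close to each other on opposite strands, and whether the counting used strand is not given in the sources used here.

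Nlrc5, the transactivator of class I genes, had 178, 173, and 179 CPM in the controls, against 144, 166, and 152 CPM after Sora. The control tumors were close together, and each Sora-treated tumor lay below all of them. The means were 177 ± 3.32 and 154 ± 11.1 CPM (SD, n = 3), and the log2 fold change was -0.20 (standard error 0.08, 95% interval -0.366 to -0.035). This was the smallest p of the 10 members and did not pass the adjustment (edgeR unadjusted p = 0.022, adjusted p = 0.19).

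The members shared much of their pattern over the 6 tumors, which is described here without a test. Control tumor 3 held the highest value of the 6 tumors for 8 members, and control tumor 4 for the other two, B2m and Nlrc5. Sora-treated tumor 2 held the lowest value for 9 members, and control tumor 4 for H2-T23. Averaged over the members, the deviation of log2(CPM + 1) from the mean of each gene was 0.066, 0.254, and -0.073 in controls 1, 3, and 4, against -0.265, 0.03, and -0.012 in Sora-treated tumors 2, 3, and 4. The ranges of the groups overlapped in this average. Sora-treated tumor 3 was the highest of its group for 7 members and Sora-treated tumor 4 for 3.

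**Figure D2:**
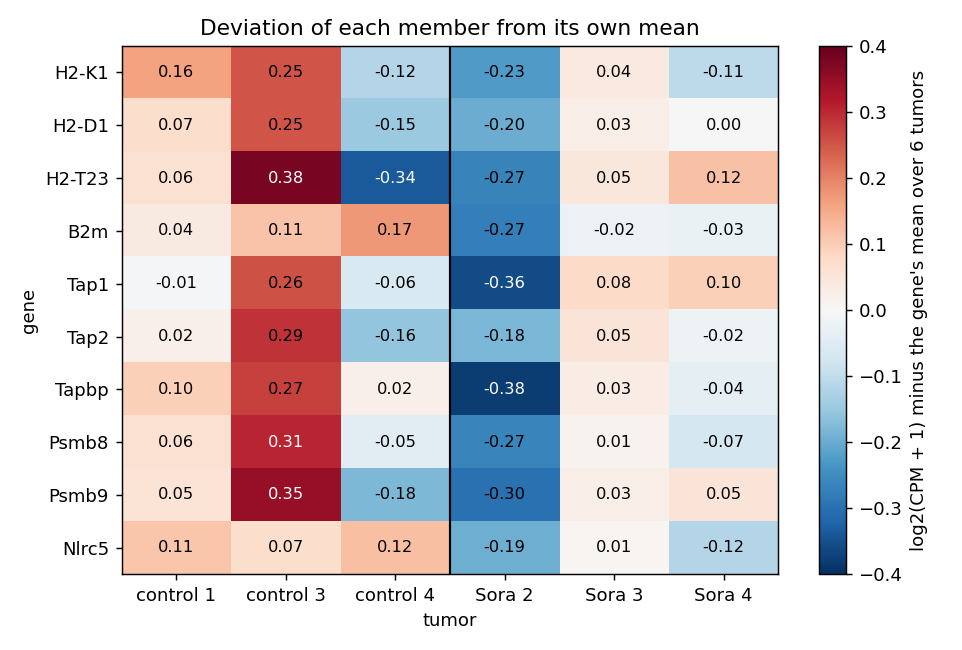
Log2(CPM + 1) of each member in each tumor minus the mean of that gene over the 6 tumors, with control tumors left of the line and Sora-treated tumors right of it. The column of control tumor 3 is above 0 for every member, the column of Sora-treated tumor 2 is below 0 for every member, and control tumor 4 is below 0 for 7 members and above 0 for B2m, Tapbp, and Nlrc5.

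Control tumor 4 set B2m and Nlrc5 apart from the heavy chains. In this tumor, H2-T23 stood at 67.5% of the mean of control tumors 1 and 3, Psmb9 at 76.3%, H2-K1 at 79.8%, Tap2 at 80.0%, and H2-D1 at 80.5%. B2m stood at 107% and Nlrc5 at 102%. It was the lowest control tumor for 8 members, namely all but these. The profiles of Psmb8 and H2-D1 over the 6 tumors were the closest to the mean profile of the members (root mean square difference 0.0349 and 0.0412 on the log2 scale), and those of H2-T23 (0.130), Nlrc5 (0.122), and B2m (0.119) were the farthest.

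Ratios within a tumor, taken in FPKM, do not depend on library scaling. The ratio of H2-D1 to B2m, 2 chains of 1 molecule, was 0.567, 0.609, and 0.443 in the controls, against 0.582, 0.573, and 0.565 after Sora. The control value of 0.443, in tumor 4, lay below all others, and the Sora-treated tumors differed little from each other. The ratio of H2-K1 to B2m was 0.157, 0.158, and 0.117 against 0.148, 0.150, and 0.136, and that of H2-T23 to B2m was 0.0894, 0.106, and 0.0616 against 0.0881, 0.0922, and 0.0971. Control tumor 4 was the lowest in each of these 3 ratios, and the groups overlapped (two-sided exact permutation p = 0.8 for H2-D1, 1 for H2-K1, and 0.8 for H2-T23; with 3 against 3 the smallest possible p is 0.1). Among partners, the ratio was steady over the 6 tumors, from 3.61 to 4.15 for H2-D1 to H2-K1 (coefficient of variation 4.61%), 5.30 to 5.99 for Tapbp to its homolog Tapbpl (5.05%), 1.14 to 1.32 for Tap1 to Psmb9 (5.77%), 1.97 to 2.35 for Psmb8 to Psmb9 (5.96%), and 2.48 to 3.03 for Tap1 to Tap2 (7.18%). The 8 ratios other than those of the immunosubunits to their counterparts were added after the values were seen.

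Among 11443 other genes that averaged 5 CPM or more, the 5 whose profile over the 6 tumors was nearest to the mean profile of the members were Kbtbd11 (root mean square difference 0.0274 on the log2 scale), Xdh (0.0311), Itgb2 (0.0355), Rhob (0.0397), and Smpd3 (0.0418). Kbtbd11 and Xdh were nearer to that mean than Psmb8, the nearest member (0.0349), so the pattern was not particular to the members. Itgb2, an integrin chain of leukocytes, had 239, 277, and 219 CPM in the controls, against 186, 222, and 217 CPM after Sora. Like most members, it was highest in control tumor 3 and lowest in Sora-treated tumor 2, and its groups overlapped (log2 fold change -0.23, edgeR adjusted p = 0.26). Xdh, a purine-degrading oxidase, had 168, 189.8, and 143 CPM against 129, 163, and 154 CPM. The groups overlapped for all 5 genes (log2 fold changes from -0.23 to -0.13), and these genes were chosen by their values, so their likeness is a description over 6 tumors.

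To ask whether the makeup of the proteasome differed, each immunosubunit was set against the constitutive subunit that it replaces. Psmb8 to Psmb5 was 2.19, 2.28, and 2.31 in the controls, against 1.53, 2.25, and 1.74 after Sora. Sora-treated tumors 2 and 4 were below all control tumors and Sora-treated tumor 3 was within them, a difference of -0.317 on the log2 scale. Psmb9 to Psmb6 was 0.814, 0.879, and 0.735 against 0.610, 0.811, and 0.718, and Psmb10 to Psmb7 was 0.543, 0.551, and 0.527 against 0.401, 0.526, and 0.468. Only the last of these 3 ratios had groups that did not overlap, and the margin between Sora-treated tumor 3 and control tumor 4 was slight. By a two-sided exact permutation test, p was 0.2 for the first, 0.2 for the second (difference -0.189), and 0.1 for the third (difference -0.226), each 0.2 after adjustment over the 3 ratios, and 3 tumors against 3 cannot go below 0.1. Without Sora-treated tumor 2, the differences were smaller, at -0.192, -0.082, and -0.124.

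**Figure D3:**
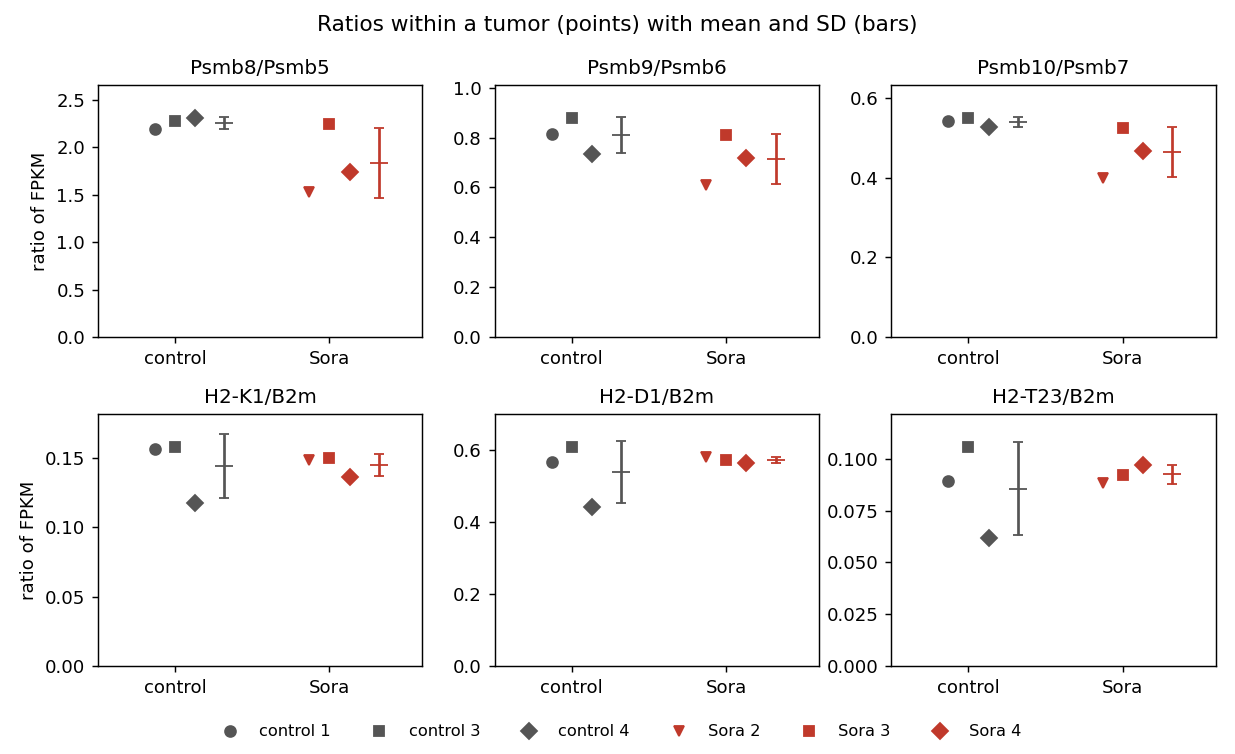
Ratios of FPKM within each tumor, with 1 point per tumor, and the mean and SD of 3 control (grey) and 3 Sora-treated (red) tumors beside them; each axis starts at 0. In the upper row, the immunosubunit ratios are lowest in Sora-treated tumor 2, and in the lower row, the ratios of heavy chain to B2m are lowest in control tumor 4.

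The rest of the pathway was described with 7 lists of 88 genes written from general knowledge, of which 87 are listed in the tables and 85 were tested. Among these, 58 estimates lay below 0 and 27 above it, with a median log2 fold change of -0.082. With adjustment, edgeR called 1 gene lower (Cd8b1) and 1 gene higher (Klra4), against 1.34% and 1.94% of all genes. At an unadjusted p under 0.05, 13 of 85 were lower and 3 higher, against 8.69% and 8.53% of all genes. The groups did not overlap for 20 lower and 4 higher genes of 85, against 11.6% and 10.6% of all genes.

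Of the 13 other class I heavy chains tested, 12 estimates were below 0, with a median of -0.213, and none passed the adjusted edgeR test (4 were lower at an unadjusted p under 0.05, against 8.69% of all genes, and DESeq2 called Hfe lower with an adjusted p of 0.035, against 3.71%). H2-Q1, named after its values were seen because its estimate was the lowest of this list, had 78.1, 83.5, and 84.5 CPM in the controls, against 33.8, 73.3, and 32.1 CPM after Sora. Sora-treated tumors 2 and 4 held less than Sora-treated tumor 3 and all control tumors, and the log2 fold change was -0.82 (standard error 0.25, edgeR adjusted p = 0.11). H2-Q1 is one of the genes with near-identical copies. Without Sora-treated tumor 3, the one nearest to the controls in this gene, its log2 fold change was -1.32 (edgeR adjusted p = 8.5e-05). That fit called 3.5% of all genes lower, and no other fit with 1 tumor left out called H2-Q1. Without a filter on low counts, edgeR called H2-Q1 (-0.83, adjusted p = 0.0024) and Hfe (-0.42, adjusted p = 0.027) lower, with 2.28% of all genes.

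In the list of peptide loading and trimming, 6 of 10 estimates were below 0 and none passed the adjusted edgeR test (1 was lower at an unadjusted p under 0.05, against 8.69% of all genes). Erap1, the aminopeptidase that trims peptides in the endoplasmic reticulum, had 171, 190, and 191 CPM in the controls, against 138, 154, and 156 CPM after Sora. The groups did not overlap, and the change of -0.30 on the log2 scale (standard error 0.08) fell short of the threshold in edgeR (adjusted p = 0.068) and passed it in DESeq2 (adjusted p = 0.012) and in edgeR with total counts or without a filter (adjusted p = 0.048 and 0.032). The estimates of the chaperones Calr (-0.12), Canx (0.04), and Pdia3 (-0.10) were small, and that of Tapbpl, a homolog of tapasin that edits peptides, was -0.25 (edgeR adjusted p = 0.30).

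The constitutive proteasome core had 7 of 14 estimates below 0 and a median of 0.005, with log2 fold changes of 0.10 for Psmb5, 0.04 for Psmb6, and 0.11 for Psmb7 (edgeR adjusted p = 0.70, 0.87, and 0.58). The third immunosubunit, Psmb10, was at -0.11 and the proteasome activator subunits Psme1 and Psme2 at -0.16 and -0.07 (edgeR adjusted p = 0.62, 0.44, and 0.82). With 1 tumor left out, Psmb10 ranged from -0.17 to -0.02 and Psme1 from -0.24 to -0.08. None of the 14 core genes and none of the 6 genes of the activator and immunosubunit list passed the edgeR test, also at an unadjusted p under 0.05, and DESeq2 called 0 of them. Psme2 has a near-identical copy, so its value is uncertain.

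Among 17 transcription factors and cofactors of class I genes, 11 estimates were below 0 and none passed the adjusted edgeR test (2 were lower at an unadjusted p under 0.05, against 8.69% of all genes, and DESeq2 called 0). Irf1, an interferon-induced factor that acts on class I promoters, had 402, 478, and 395 CPM in the controls, against 285, 394, and 392.3 CPM after Sora, a log2 fold change of -0.25 (edgeR adjusted p = 0.35). The estimate was -0.11 without Sora-treated tumor 2 and -0.16 without control tumor 3. The 3 Sora-treated tumors lay below the control tumors, by a narrow margin.

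Among interferon ligands and receptors, 7 of 10 estimates were below 0, and none passed the adjusted edgeR test (2 lower and 2 higher at an unadjusted p under 0.05, against 8.69% and 8.53% of all genes). Ifng, the interferon that raises class I expression, had 7.10, 6.91, and 7.37 CPM in the controls, against 4.86, 8.67, and 6.25 CPM after Sora, a log2 fold change of -0.11 (edgeR adjusted p = 0.83). The Sora-treated tumors lay on both sides of the control tumors. The kinase Jak2 and the signaling inhibitor Socs3, both named after their values were seen, had estimates of 0.29 and 0.45 with groups that did not overlap, which passed the test in DESeq2 (adjusted p = 0.0031 and 0.0064, against 4% of genes higher) and not in edgeR (adjusted p = 0.056 and 0.08). Without a filter on low counts, edgeR called both (adjusted p = 0.042 and 0.0083), and Jak2 was also called with total counts, with upper quartile scaling, and with at least 10 counts in every tumor (edgeR adjusted p = 0.049, 0.047, and, rounded up, 0.05).

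Among class I receptors and CD8 chains, 10 of 15 estimates were below 0, and 4 were lower and 1 higher at an unadjusted edgeR p under 0.05, against 8.69% and 8.53% of all genes. Cd8b1, a chain of the coreceptor that binds class I, was down-regulated, with 31.5, 30.0, and 25.8 CPM in the controls, against 19.0, 19.6, and 20.4 CPM after Sora. All control tumors were above all Sora-treated tumors, and the log2 fold change was -0.56 (standard error 0.10, edgeR adjusted p = 0.018). Its partner Cd8a had 71.7, 66.9, and 60.8 CPM against 52.9, 60.3, and 47.3 CPM, also without overlap, and did not pass the test (log2 fold change -0.31, edgeR adjusted p = 0.12, and 0.049 without a filter). Klra4, a receptor of the Ly49 family, was up-regulated from 1.62, 1.26, and 1.12 CPM to 5.75, 1.79, and 6.52 CPM, with Sora-treated tumor 3 close to the control tumors. Its log2 fold change was 1.81 (standard error 0.42, edgeR adjusted p = 0.045), it had 41 reads in its lowest tumor, and genes of its family are near-identical. Without Sora-treated tumor 3, which calls 4 lower genes (Cd8a, Cd8b1, H2-Q1, and Stat2) and 3 higher ones (Jak2, Klra4, and Socs3) of the wider lists and 3.5% and 3.52% of all genes, the Klra4 change was 2.20 (edgeR adjusted p = 0.002). With any one other tumor left out, Klra4 was not called, although its log2 fold change stayed between 1.5 and 1.97. These fits called 0.0245% to 1.28% of all genes higher. Cd8b1 was not called without control tumor 1, Sora-treated tumor 2, or Sora-treated tumor 4 (log2 fold changes -0.5, -0.54, and -0.59). In that order, these fits called 0.362%, 0.209%, and 0.00613% of all genes lower, against 1.34% with all tumors. The lost calls thus say little about Cd8b1 and Klra4, whose estimates kept their direction.

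**Figure D4:**
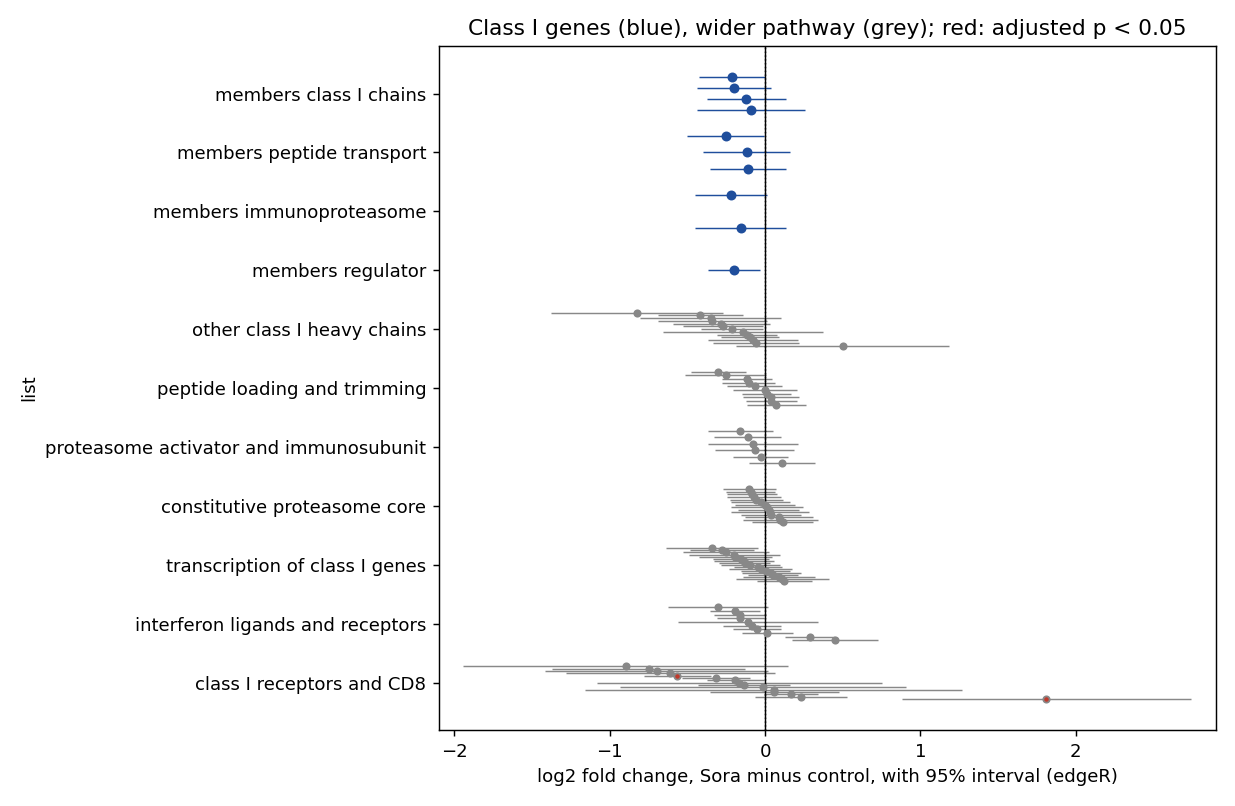
Log2 fold change of each gene (Sora-treated minus control tumors, edgeR) with its 95% interval, for the 10 members in blue and the genes of the 7 wider lists in grey; the dotted line is the median of all genes tested. All blue points lie between -0.25 and -0.09, and the genes marked red, Cd8b1 at -0.56 and Klra4 at 1.81, are the only ones past the adjusted threshold.

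Summed markers of several cell types had ranges that did not overlap between the groups. The sums are given beside the members and were not tested. The summed CPM of the 5 leukocyte markers was 1281 to 1422 in control tumors and 1160 to 1224 in Sora-treated tumors, without overlap, and all 5 estimates were below 0. Ptprc, the pan-leukocyte gene, had 273, 215, and 212 CPM in the controls, against 182, 200, and 169 CPM after Sora (log2 fold change -0.35, edgeR adjusted p = 0.11), and was called lower by DESeq2 (adjusted p = 0.0207) and by edgeR without a filter on low counts (adjusted p = 0.0269). Its estimate ranged from -0.41 to -0.22 with 1 tumor left out. The sums of the T cell markers (149 to 169 against 125 to 133 CPM), CD8 T cell markers (86.6 to 103 against 67.7 to 79.9), NK cell markers (24.4 to 30.1 against 21.9 to 23.2), macrophage markers (1721 to 2083 against 1450 to 1699), and dendritic cell markers (241 to 299.99 against 196 to 226) did not overlap either. With adjustment, edgeR called Cd8b1 alone among the markers of leukocytes and these 5 lists, and DESeq2 called 2 of 5 leukocyte, 1 of 6 T cell, 1 of 2 CD8 T cell, 0 of 4 NK cell, 4 of 7 macrophage, and 1 of 6 dendritic cell markers lower, against 3.71% of all genes. In the 5 lists, 6 of 6, 2 of 2, 3 of 4, 7 of 7, and 5 of 6 estimates were below 0. Single genes made up most of 3 of these sums, Itgax in the dendritic cell sum (a control mean of 237 CPM), Cd8a in the CD8 T cell sum (66.5 CPM), and Klrk1 in the NK cell sum (18.6 CPM). Of the other dendritic cell markers, the log2 fold changes were -0.52 for Clec9a, -0.06 for Flt3, -0.06 for Xcr1, and 0.11 for Zbtb46, all with overlapping groups, and -0.31 for Ccr7, without overlap. Of the other NK cell markers, Eomes was at -0.63, without overlap, Ncr1 at 0.45, and Klrb1c at 0, both with overlap.

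The fibroblast sum was also lower, from 5641 to 5851 against 4179 to 5165 CPM, with 4 of 5 estimates below 0. Of these 5 genes, the groups did not overlap for Col1a1 (-0.42) and Col1a2 (-0.47), both called lower by DESeq2 (adjusted p = 0.00651 and 0.000457) and not by edgeR (adjusted p = 0.12 and 0.056), and overlapped for Pdgfra (-0.03), Pdgfrb (-0.09), and Dcn (0.03). The neutrophil sum was higher, from 55.9 to 64.0 against 68.8 to 136 CPM, where S100a9 was up-regulated (log2 fold change 1.21, edgeR adjusted p = 0.042, DESeq2 adjusted p = 0.0532), Csf3r was at 0.50 without overlap (edgeR adjusted p = 0.072, DESeq2 adjusted p = 0.00693), and the defining marker Ly6g averaged only 0.192 CPM. The hepatoma sum overlapped between the groups (4807 to 6272 against 4821 to 5356 CPM), with 4 of 9 estimates below 0, but its genes differed in direction. Ttr and Alb were down-regulated (log2 fold changes -2.15 and -0.55, edgeR adjusted p = 0.0055 and 0.041), and Hnf4a and Apoa1 were up-regulated (0.80 and 1.03, edgeR adjusted p = 0.013 and 0.047), of which Apoa1 was not called by DESeq2 (adjusted p = 0.0627). These 4, and the single markers of the other lists, were named after their values were seen. The sums of B cell markers (1.81 to 3.99 against 1.54 to 3.54) and of skin markers (240.0 to 837 against 529 to 794) overlapped as well. So did the endothelial sum (187 to 226 against 145 to 204 CPM) and the muscle sum (113 to 154 against 129.5 to 177 CPM). No marker of any list was at 0 in any tumor.

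As a share of the control mean, the members averaged 98.3%, 112.2%, and 89.5% in the controls, against 78.1%, 95.8%, and 93.3% after Sora. The leukocyte sum stood at 103%, 103.6%, and 93.4%, and at 84.5%, 89.2%, and 85.6%. Members and leukocyte markers were both lowest in Sora-treated tumor 2, but the 3 Sora-treated tumors were closer together in the markers than in the members. Relative to Ptprc, all 10 members had differences above 0 (0.08 to 0.27 on the log2 scale), and the groups overlapped for each of them. Without control tumor 1, the edgeR estimate of Ptprc was -0.22. Those of Tapbp (-0.27), B2m (-0.25), and Psmb8 (-0.24) then lay below it, and the other members lay above it. Relative to the leukocyte sum, 7 differences were above 0 and 3 below it (-0.05 to 0.14), all with overlap, and relative to the macrophage sum all 10 were above 0 (0.03 to 0.22), 9 with overlap. The part of these cell types in the members' values was not tested.

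**Figure D5:**
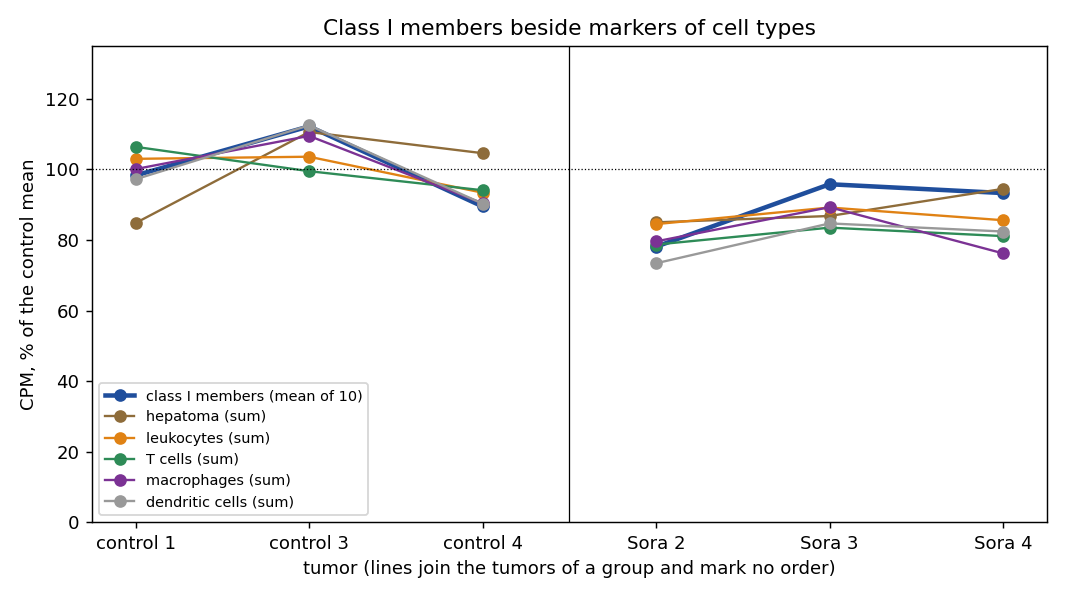
CPM as a percentage of the mean of the control tumors for the average of the 10 members (blue) and for the summed markers of 5 cell types, in 3 control (left) and 3 Sora-treated (right) tumors; the lines join tumors of a group and mark no order. The members are at 78.1% in Sora-treated tumor 2 and 95.8% in Sora-treated tumor 3, and the T cell, leukocyte, and dendritic cell sums lie below the lowest control tumor in every Sora-treated tumor.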

How the data were processed

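RNA-seq libraries of 3 control and 3 Sora-treated tumors were used. The authors deposited raw counts per gene and FPKM, counts divided by gene length and library total. The submitters' processing notes name fastp, HISAT2, HTSeq, R 3.2.0, DESeq2, and GRCm39, whereas the paper's methods name Bowtie2 and GRCm38. The annotation, filters, and whether strand was used are not given in the sources used here. The tables carry no coordinates, and those printed are of RefSeq's GRCm38.p6 windows. Counts of Sora-treated tumor 4 were recovered from FPKM, and the same calculation returned every count it reached in the 5 tumors with deposited counts. The 342 genes without a known length (512 reads, 0.0015% of the reads) were left at 0.

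The test was edgeR's quasi-likelihood test (version 4.0.16, glmQLFTest after glmQLFit, TMM scaling, R 4.3.3) on the 16513 genes that reached 10 counts in 3 or more tumors, with Benjamini-Hochberg adjustment over all of them and a threshold of 0.05. Alternatives were DESeq2 (version 1.42.0 here; the paper names the tool without a version), other scalings and filters, robust=TRUE, a replicate block, leaving out each tumor, and limma 3.58.1 on log2(FPKM + 1) or log2(FPKM + 0.1), with a minimum of 1 FPKM or for all genes. Ratios were compared by exact permutation over the tumors. The biological coefficient of variation was 0.132. The edgeR and DESeq2 steps were tested on simulated data.

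Named genes were the 10 members, pathway genes past the adjusted threshold, 17 fixed pathway genes (Ptprc included, and 1 not reported here), and the 5 nearest profiles (log2(CPM + 1), centered per gene). Exceptions are marked in the text. The members and lists were chosen with earlier results of these data known. The tumors are numbered in the labels, and nothing else states that they came from separate animals, so p-values measure the spread between these samples.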

Additional observations from a re-analysis of the deposited data

How the results depend on the processing

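No member was called in either direction under any of the 18 alternatives (0 in each), and 175 of the 180 member estimates stayed below 0. Several of these settings called few genes of any kind, so their 0 says little about the members. The shares of all genes lower and higher were 0% and 0% with limma on all genes. They were 0.00613% and 0.0245% without Sora-treated tumor 4, and 0.0437% and 0.0624% without both control tumor 4 and Sora-treated tumor 2. The median over the members ranged from -0.237 to -0.065, and both ends came from leaving out 1 tumor. The 5 estimates above 0 were H2-T23 in the replicate block (0.06), without control tumor 3 (0.10), and without Sora-treated tumor 2 (0.02), Tap2 without control tumor 3 (0.02), and Tap1 without Sora-treated tumor 2 (0.02). With 1 tumor left out, H2-T23 ranged from -0.26 to 0.10, Tap2 from -0.21 to 0.02, Tap1 from -0.19 to 0.02, Psmb9 from -0.28 to -0.0067, H2-D1 from -0.22 to -0.02, Psmb8 from -0.29 to -0.11, H2-K1 from -0.30 to -0.12, Tapbp from -0.34 to -0.14, B2m from -0.26 to -0.13, Nlrc5 from -0.26 to -0.15, Psme2 from -0.18 to 0.07, Psmb6 from -0.02 to 0.12, Psmb5 from 0.01 to 0.20, and Ifng from -0.36 to 0.07. Of the wider lists, edgeR called 1 gene lower and 1 higher. These counts became 3 and 3 in DESeq2 (3.71% and 4% of all genes), 2 and 2 with scaling by total counts (1.31% and 1.88%), and 5 and 3 without a filter (2.28% and 2.26%). With limma on all genes they were 0 and 0 (0% and 0%). The higher count was 2 with upper quartile scaling and with at least 10 counts in every tumor, and 0 with robust=TRUE and with limma on either pseudocount. With 1 tumor left out, 0 to 4 were lower and 0 to 3 higher, and the cause was not tested. The share of all genes called changed as well. It was 0.00613% lower and 0.0245% higher without Sora-treated tumor 4, and 3.5% and 3.52% without Sora-treated tumor 3. Without both control tumor 4 and Sora-treated tumor 2, a setting chosen after seeing the data, 0 and 0 were called (0.0437% and 0.0624% of all genes). In it, Psmb5 was at -0.03, Psmb6 at -0.01, and Ifng at 0.09.

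The tumor numbers shared by both groups are 3 and 4, and the deviations of same-numbered tumors from their group means had r = -0.033 and -0.074 across genes, so the numbers were not taken as pairs. Between tumors of other numbers, r ranged from -0.157 (control 3 with Sora-treated 2) to 0.259 (control 1 with Sora-treated 2). In the fit with a replicate block on these 4 tumors, 0 wider genes were called lower and 0 higher (0.273% and 0.484% of all genes). Ifng was at 0.05 in this fit, and the median of the members was -0.075. The log2 ratio differences of the immunosubunits, with 1 tumor left out, ranged from -0.471 to -0.192 for Psmb8 to Psmb5, from -0.287 to -0.082 for Psmb9 to Psmb6, and from -0.32 to -0.124 for Psmb10 to Psmb7. With 3 tumors a group, 1 tumor could change the sign of the smaller estimates, and each member had at least 2556 reads, so counting error was small beside the spread between tumors.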
